A study of Arabidopsis thaliana with 6 samples.

Results

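The root cortex was compared with the endodermis, the inner of the ground tissue layers, in RNA sequencing of fluorescence-sorted root cells of Arabidopsis thaliana. The comparison uses 3 of the 6 libraries of the series: 1 library of cortex cells from the reporter line ProAT1G09750:GFP, and 2 libraries of endodermis cells from the reporter lines ProSCR:GFP line1 and ProSCR:GFP line2. All came from roots of seedlings grown for 6 days with no treatment in the labels. No ecotype or further genotype is labelled. Each reporter puts green fluorescent protein under the promoter of a single gene, so a library holds whatever cells that promoter lights up. The SCR promoter is known to be active in the quiescent centre and the ground tissue initials as well as in the endodermis. The other 3 libraries (epidermis, stele and columella root cap) did not enter the contrast and are given only as further readouts of the same genes. The labels do not say whether the endodermis lines are separate cultures or days, and the spread of their values may be technical.

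Cortex and endodermis are sisters. In the root tip a ground tissue initial gives rise to a daughter cell that divides along the length of the root, and that division makes both layers. SHR, a GRAS-family transcription factor, moves from the stele into the neighbouring layer, where it turns on SCR. Together they drive the division and set endodermal fate, while IDD zinc finger proteins hold SHR in place and shape its output. The endodermis then builds the Casparian strip, a lignin belt that seals the space between cells. CASP membrane proteins mark the site of the belt, and the transcription factor MYB36 turns on much of the gene set for it. The cortex makes no such strip in this species.

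Levels are given in FPKM, a fragment number divided by the length of the transcript and by the depth of the library. Differences are on the log2(FPKM + 1) scale, which understates the change of low genes. Genes counted as measured with at least 1 FPKM in at least 1 of the 3 libraries, as 18119 of 33554 loci were. A gene was called higher or lower in cortex when it stood at least 1 log2 unit (about 2-fold) above both endodermis lines, or below both, with at least 5 FPKM on the higher side. Cortex is a single library, so this rule of size carries no p-value. Beside it stands limma, a linear model with a spread shared across genes, called at an adjusted p under 0.05. It has 1 residual degree of freedom and assumes that the lone cortex library varies like the endodermis pair. Between libraries of sorted cells, fewer cells of a type and less RNA per cell cannot be told apart.

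The markers AED3 and MYB36 went in the direction of the labels, and SCR did so by less than the rule asks. AED3 (AT1G09750), an aspartyl protease whose promoter drives the cortex reporter, had 43.0 FPKM in cortex, against 5.51 in endodermis line 1 and 3.79 in line 2, a mean of 4.65 ± 1.22 (SD, n = 2). MYB36 (AT5G57620), a defining endodermis gene, was at 3.87 FPKM in cortex, against 377 and 70.5 in endodermis lines 1 and 2, averaging 224 ± 217 (SD, n = 2). Neither gene's groups overlapped, which is common here. Cortex stood above both lines at 27.3% of measured genes and below both at 21.6%. SCR (AT3G54220), the gene of the endodermis reporter, was at 36.5 FPKM in cortex, against 59.7 in line 1 and 147 in line 2. Cortex was thus below both lines for SCR, but by only 0.69 log2 units from line 1, and the lines differed from each other by more than that, at 1.29. SCR was therefore not called.

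The endodermis lines stood further apart from each other than cortex did from either line. At least 2-fold differences with 5 FPKM on the higher side were found at 4765 genes (26.3%) between cortex and line 1, at 1493 genes (8.24%) between cortex and line 2, and at 5908 genes (32.6%) between the lines themselves. Cortex therefore lay closer to line 2 than line 2 did to line 1. A list of 12 genes known to respond to stress and cell wall digestion summed to 617 FPKM in cortex, against 2536 in line 1 and 584 in line 2. A list of 16 genes of G2 and M phase, the end of the cell cycle, summed to 200 FPKM in cortex, against 122 in line 1 and 430 in line 2. Every one of the 16 had a cortex value between the lines. The part of either list in the differences below was not tested, and values of named genes are given for each line. The labels do not say whether the line 1 library came from another sort or stage, so differences from line 1 and from line 2 may not measure the same thing. Between 15999 and 17096 loci reached 1 FPKM in the 6 libraries. The read number of each library is unknown here, and no counting interval can be set on a value. From loci with low values, 1 read was worth roughly 1.59 times as much FPKM in cortex as in line 1, and 1.21 times as much in line 2, so cortex was the shallowest of the 3.

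Cortex was called higher at 342 genes (1.89% of those measured) and lower at 312 genes (1.72%), or 654 genes in all (3.61%). Cortex stood above both lines by any amount at 4947 genes (27.3%) and below both at 3909 (21.6%). In 291 of the 342 higher genes and 234 of the 312 lower genes, the gap to the nearer line exceeded the gap between the lines. The lower set reached further: 108 of its genes lay at least 2 log2 units below the nearer line and 42 at least 3, against 78 and 16 in the higher set above the nearer line. Limma called 3 genes higher (0.0166%) and 35 lower (0.193%), or 38 in all (0.21%), and all of these also met the rule of size. At an unadjusted p under 0.05 it had 436 genes. With scaling by size factors, or with no filter on low values, limma called 0 genes in either direction, at 316 and 730 genes under an unadjusted 0.05. The counts also rest on asking for both lines: without line 1 they were 843 higher and 650 lower, and without line 2 they were 2234 and 2531.

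**Figure D1:**
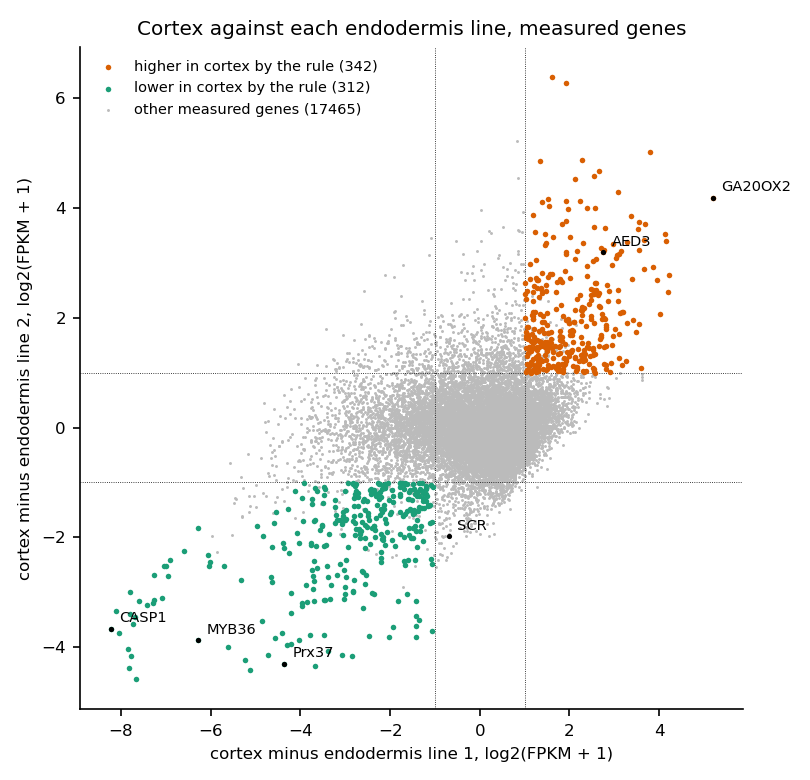
Each point is a measured gene, with its difference between cortex and endodermis line 1 on the x axis and between cortex and endodermis line 2 on the y axis, both in log2(FPKM + 1). Orange points are the 342 genes called higher in cortex, green points the 312 called lower and grey points the other measured genes, with dotted lines at 1 log2 unit either way. CASP1 and MYB36 lie further from line 1 than from line 2, whereas Prx37 and AED3 lie about as far from both.

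The genes of the Casparian strip had the largest median difference of the 22 lists described here. Of 22 genes for the strip and its surveillance, all measured, 16 were called lower in cortex and 0 higher, and limma called 13 of these, all but PER3, PER39 and GSO1. The list's median difference was -4.92 log2 units from the mean of the lines, at -6.80 from line 1 and -3.21 from line 2, beside 0.044 over all measured genes. Summed over the list, cortex held 221 FPKM, against 15745 in line 1 and 2992 in line 2.

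The CASP proteins form the scaffold of the strip. CASP1 (AT2G36100) was at 5.80 FPKM in cortex, against 2045 in line 1 and 85.2 in line 2. CASP5 (AT5G15290) was at 3.12 FPKM in cortex, against 925 and 85.0 in lines 1 and 2. Its log2 difference from the mean of the lines was -6.10, and the lines themselves were 3.43 log2 units apart. CASP1, CASP2, CASP4 and CASP5 had single-digit cortex values of 2.26 to 5.80 FPKM, while line 1 spanned 751 to 2045 and line 2 spanned 45.8 to 85.2. The groups did not overlap for any of these 4 genes, as the rule asks of every called gene. All 4 lay further from line 1 than from line 2. For CASP1 the lines differed by 4.57 log2 units, more than the 3.66 between cortex and line 2, and likewise for CASP2.

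Enzymes and wall proteins that lay down lignin were likewise called lower. UCC1 (AT2G32300), a uclacyanin copper protein of the wall, had the widest gap of all genes called lower, at 7.97 FPKM in cortex against 1809 in line 1 and 214 in line 2. ESB1 (AT2G28670), a dirigent protein needed for an unbroken belt, was at 4.72 FPKM in cortex, against 1180 and 61.8 in lines 1 and 2. The list held 5 class III peroxidases, the enzymes that oxidise monolignols for coupling. PER64 (AT5G42180) was at 2.97 FPKM in cortex, against 765 in line 1 and 34.6 in line 2. PER72 was at 4.17 FPKM in cortex, against 1436 and 51.5, and PER9 at 1.33, against 226 and 10.03. PER3 and PER39 were high in both lines instead. PER3 (AT1G05260) was at 72.0 FPKM in cortex, against 2757 in line 1 and 1377 in line 2. PER39 (AT4G11290) was at 35.0 FPKM in cortex, against 1253 and 764. Both kept the highest cortex values among the members that were called, and the lines differed by 1.00 log2 unit for PER3 and by 0.71 for PER39. LAC3 (AT2G30210), a laccase of the strip, was at 1.48 FPKM in cortex, against 387 in line 1 and 21.8 in line 2.

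The regulators and the surveillance pathway were mixed. GSO1 (AT4G20140), also known as SGN3, is the receptor that senses gaps in the belt, and it was at 3.40 FPKM in cortex, against 73.4 in line 1 and 15.6 in line 2. SGN1 (AT1G61590), the kinase that acts downstream of it, was at 0.616 FPKM in cortex, against 204 and 8.27. Of the list, 6 members were not called. The related receptor GSO2 was at most 3.87 FPKM in the 3 libraries, and the ligand genes CIF1 and CIF2 were highest in line 1 with cortex and line 2 both low. CIF2 was at 3.91 FPKM in cortex, against 43.5 in line 1 and 1.18 in line 2. These peptides are known to come from the stele, where CIF2 was at 0.767 FPKM. TPST, the enzyme that sulphates them, was at 17.2 FPKM in cortex, against 11.3 and 16.0. EXO70A1, of the exocyst that positions the CASP proteins, was close to even at 37.7 FPKM in cortex, against 42.3 and 36.0. RBOHF, the NADPH oxidase that feeds the peroxidases, was at 8.53 FPKM in cortex, against 92.9 in line 1 and 13.6 in line 2, so its difference was large only against line 1.

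**Figure D2:**
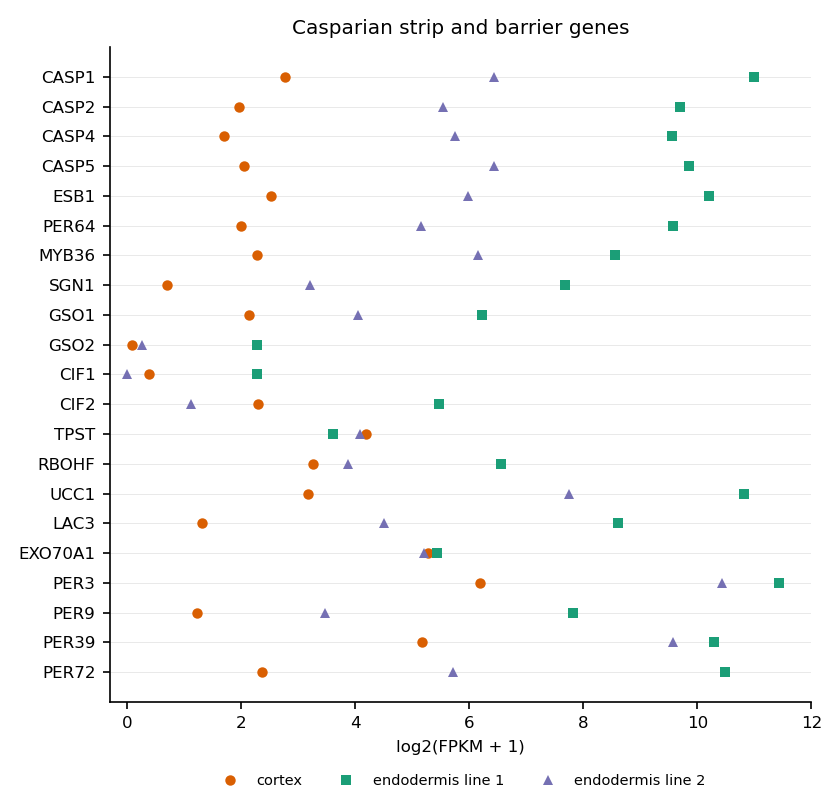
Each row is a gene of the Casparian strip list (21 of 22 shown) and each symbol its log2(FPKM + 1) in 1 library: circles for cortex, squares for endodermis line 1, triangles for endodermis line 2. The genes called lower have the cortex circle to the left of both endodermis symbols, and for the CASP genes shown the line 2 triangle lies between cortex and line 1. EXO70A1 and TPST have all 3 symbols close together.

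Suberin, the waxy polymer that endodermal cells deposit later, was represented by few expressed genes. Of 18 listed genes 12 were measured, 2 were called lower and 10 lay below both lines. Of all measured genes, 1.72% were called lower and 21.6% lay below both lines. Some of the 10 were near 0 in both cortex and line 2. CYP86B1 was at 0.0099 FPKM in cortex and 0.045 in line 2, and GPAT7 at 0.067 and 0.130. ASFT (AT5G41040), which attaches ferulate to suberin monomers, was at 0.374 FPKM in cortex, against 88.2 in line 1 and 6.48 in line 2. MYB92 (AT5G10280), a regulator of suberin genes, was at 2.51 FPKM in cortex, against 56.1 and 50.4, so it was high in both lines alike. MYB92 was at 29.3 FPKM in columella root cap and at most 2.71 in epidermis and stele.

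Monolignol synthesis, which supplies the lignin of the belt, did not divide the layers in this way. Of 16 genes, 15 had a cortex value between the lines, with line 1 high. PAL1, which opens the phenylpropanoid pathway, was at 77.3 FPKM in cortex, against 469 in line 1 and 13.0 in line 2. The list's median was -2.22 log2 units against line 1 but 0.75 against line 2, so its direction turned with the line. The exception was CYP84A1 (AT4G36220), the ferulate 5-hydroxylase of the syringyl branch, which was called higher at 6.82 FPKM in cortex, against 0.235 and 0.690.

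Genes that pattern the ground tissue were less divided than those of the strip. Of 16 measured genes (17 listed), 4 were called lower in cortex and 1 higher, against 1.72% and 1.89% of all measured genes. The median difference was -0.34, at -0.19 from line 1 and -0.63 from line 2. IDD6 (AT1G14580), also known as BLUEJAY, was at 2.66 FPKM in cortex, against 27.7 in line 1 and 23.2 in line 2. BIB (AT3G45260), or BALDIBIS, was at 1.00 FPKM in cortex, against 5.46 and 9.74. IDD4 (AT2G02080), or IMPERIAL EAGLE, went the other way, at 17.4 FPKM in cortex against 4.78 and 5.57. Members of 1 zinc finger family were thus called in opposite directions by the rule of size, with cortex a single library. For each of these 3 genes the gap to the nearer line exceeded the gap between the lines. All 3 were under 0.5 FPKM in epidermis, stele and columella root cap, so within the series they were seen in the ground tissue layers. JKD (AT5G03150), which helps confine SHR, was not called, at 66.3 FPKM in cortex, against 36.3 in line 1 and 61.3 in line 2. MGP and NUC, also of the IDD family, were above both lines without reaching 1 log2 unit from the nearer one. MGP was at 22.1 FPKM in cortex, against 10.8 and 12.6, and NUC at 22.2, against 14.9 and 5.93.

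Of the SHR targets known from earlier work, SCL3 and BR6OX2 were called lower, and MGP, NUC, SNE and the receptor-like kinase gene AT5G67280 were not called. SNE was at 1.07 FPKM in cortex, against 2.73 and 5.92, and AT5G67280 at 6.87, against 4.04 and 11.2. SCL3 (AT1G50420), a GRAS protein that promotes gibberellin responses in the endodermis, was at 11.3 FPKM in cortex, against 28.7 in line 1 and 50.4 in line 2. BR6OX2 (AT3G30180), which makes brassinolide, was at 8.32 FPKM in cortex, against 75.3 and 55.5. SHR itself was at 7.27 FPKM in cortex, against 11.6 and 16.7, and at 98.8 in stele, where the gene is transcribed. CYCD6;1, the cyclin that SHR and SCR use for the formative division, was not measured.

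The stem cell niche, where the SCR promoter is also active, was checked by its own genes. Of 5 niche genes, 0 were called, where 3.61% of all measured genes were, so a count of 0 is near the background. Below both lines lay 4 of the 5, against 21.6% of all measured genes. The list's median was -0.89 (-0.58 from line 1 and -1.26 from line 2), with sums of 20.6 FPKM in cortex, against 27.0 in line 1 and 49.2 in line 2. WOX5, which marks the quiescent centre, was at 1.60 FPKM in cortex, against 2.89 and 3.03. None was at 0, and their part in the patterning differences was not tested.

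On the cortex side, the widest gap belonged to a gibberellin enzyme. GA20OX2 (AT5G51810) was at 73.5 FPKM in cortex, against 1.02 in line 1 and 3.08 in line 2, which is 71.9-fold and 23.9-fold. Its log2 difference from the mean of the lines was 4.70, and the lines themselves were 1.01 log2 units apart. GA 20-oxidases carry out the late steps that precede bioactive gibberellin, and GA 3-oxidases make the active hormone. GA20OX1 was at 6.27 FPKM in cortex, against 0.134 and 0.585, and GA20OX3 at 6.01, against 0.125 and 0.313. GA3OX1 (AT1G15550) was at 58.0 FPKM in cortex, against 7.47 in line 1 and 3.77 in line 2. The endodermis values of the less expressed oxidases are below 1 FPKM, so their ratios are imprecise. GA3OX2 pointed the same way, at 6.69 FPKM in cortex against 1.16 and 3.78, but missed 1 log2 unit from line 2. In each of these 5 genes the cortex value was also the highest of the 6 libraries.

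The other steps of the gibberellin pathway did not share that difference. Of 24 measured genes (26 listed), 4 were called higher, the 4 oxidases, and 1 lower, SCL3, with a median of 0.17, at 0.34 from line 1 and 0.23 from line 2. That median was 0.079 with size factors, which moved the median of all genes by -0.11. The early enzyme KO was at 14.6 FPKM in cortex, against 25.9 and 35.3, and KAO1 and KAO2 of the middle steps were close to or between the lines. None of the 4 measured GA 2-oxidases, which inactivate gibberellin, was called. GA2OX6 was at 3.39 FPKM in cortex, against 65.3 in line 1 and 2.06 in line 2. Receptors and DELLA repressors were also not called: RGA was even at 34.3 FPKM in cortex, against 36.0 and 33.4. RGL2 came nearest among the DELLA genes, at 12.6 FPKM in cortex against 2.54 and 6.04. NPF3 (AT1G68570), a transporter that brings gibberellin into the endodermis, was below both lines at 0.073 FPKM in cortex, against 4.04 and 0.830. It was too low for a call, and its difference of -0.77 from line 2 also fell short of 1 log2 unit.

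Among the 7 cortex markers, 5 were called higher and 0 lower, with a median of 2.39, at 1.40 from line 1 and 3.20 from line 2. Markers of this kind were picked in earlier work for their level in cortex, so the count is a check of the label. NPF6.4 (AT3G21670), of the nitrate and peptide transporter family, was at 27.6 FPKM in cortex, against 2.38 in line 1 and 0.457 in line 2. C/VIF2, an invertase inhibitor, was at 35.8 FPKM in cortex, against 13.0 and 1.14, with the lines further apart than cortex and line 1. The long-used marker CO2 (AT1G62500) went against its name, at 2.39 FPKM in cortex, against 1.55 in line 1 and 6.97 in line 2. FLA13 was at 7.86 FPKM in cortex, against 10.8 and 0.242, so it too lay between the lines. The call for AT1G62510, at 14.3 FPKM in cortex against 5.56 and 0.296, was lost with size factors.

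Flavonoid synthesis stood higher in cortex, with line 1 in between. Of 7 measured genes (10 listed), 4 were called higher, 6 lay above both lines, and the median was 3.03, at 1.34 from line 1 and 4.67 from line 2. CHIL (AT5G05270), which helps chalcone synthase work cleanly, was at 612 FPKM in cortex, against 96.1 in line 1 and 23.0 in line 2. F3H (AT3G51240), which makes dihydroflavonols, was at 706 FPKM in cortex, against 227 and 62.8. FLS1 (AT5G08640), which turns them into flavonols, was at 342 FPKM in cortex, against 134 and 10.8. For CHI, F3H and FLS1 the lines differed by more than cortex differed from line 1, and for CHIL they did not. CHS, the entry enzyme, was at 633 FPKM in cortex, against 356 and 15.9, and missed the 1 log2 unit from line 1. MYB12, the activator of these genes in roots, did not follow them, at 20.8 FPKM in cortex against 19.0 in line 1 and 29.8 in line 2. DFR, of the anthocyanin branch, was not measured.

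Triterpene clusters, neighbouring genes that make thalianol and marneral, were called higher in cortex for all 5 members, with a median of 2.74, at 1.93 from line 1 and 3.37 from line 2. THAS1 (AT5G48010), the thalianol synthase, was at 47.2 FPKM in cortex, against 12.5 in line 1 and 2.68 in line 2. MRN1 (AT5G42600), the marneral synthase, was at 16.7 FPKM in cortex, against 3.37 and 0.605. Cortex was not their highest library, because each of the 5 was higher still in epidermis. They summed to 353 FPKM in cortex, 94.0 in line 1, 31.7 in line 2, 855 in epidermis and 4.81 in stele. For CYP71A16, an oxidase of the marneral cluster, the call was lost with size factors.

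Regulators of epidermal fate were also called higher in cortex. WER (AT5G14750) was at 12.8 FPKM in cortex, against 4.61 and 5.57, MYB23 at 11.1, against 3.29 and 1.85, and EGL3 at 5.25, against 0.873 and 1.91. Of 11 measured epidermis and root hair markers (13 listed), these 3 were called higher and 0 lower. Shares over all measured genes were 1.89% higher and 1.72% lower. Markers of growing hairs were not called, and EXPA7 was at 1.45 FPKM in cortex, against 4.18 in line 1, 0.941 in line 2 and 196 in epidermis. Summed over all markers, cortex held 65.0 FPKM, against 79.9 and 43.5 in lines 1 and 2, and 1066 in epidermis. No measured marker was at 0 in cortex. The list's median was 0.27, at 0.40 from line 1 and 0.60 from line 2. It was -0.017 with size factors, which moved the median of all genes by -0.11 to -0.063. The part of epidermal RNA in the triterpene and regulator differences was not tested.

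**Figure D3:**
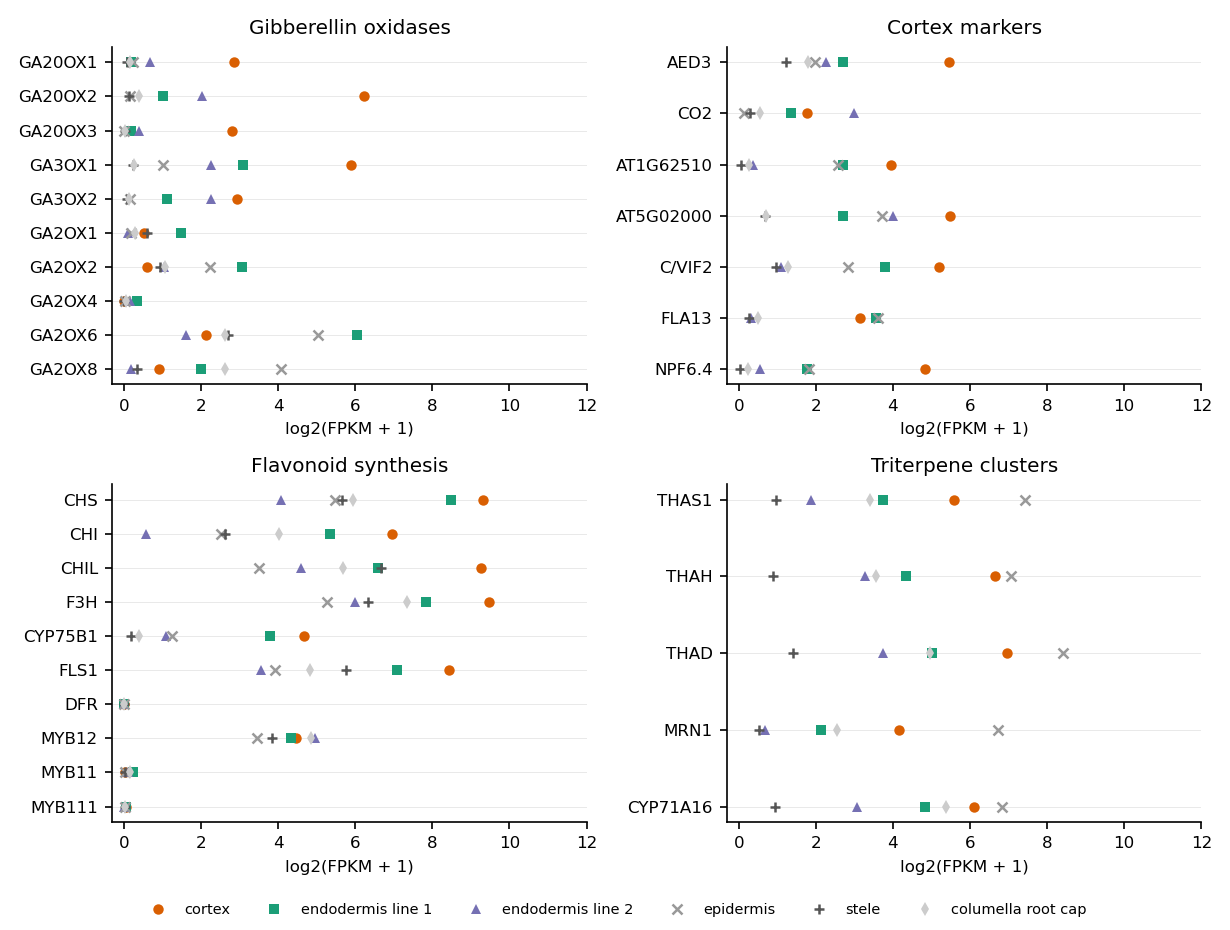
Each row is a gene and each symbol its log2(FPKM + 1) in 1 library, for gibberellin oxidases, cortex markers, flavonoid synthesis and triterpene clusters. Orange circles are cortex, green squares and purple triangles endodermis lines 1 and 2, and grey symbols the 3 libraries outside the contrast. GA20OX1, GA20OX2, GA20OX3 and GA3OX1 have cortex far to the right of every other library, whereas the triterpene genes have the epidermis cross further right than cortex.

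Other genes were among the 15 with the widest gaps above endodermis. UGT74E2 (AT1G05680), a glycosyltransferase known to act on an auxin, was at 108 FPKM in cortex, against 6.87 in line 1 and 2.36 in line 2. Its log2 difference from the mean of the lines was 4.41. The myb-like regulator gene AT2G38300 was at 29.9 FPKM in cortex, against 1.41 and 1.37, and the homeodomain-like gene AT2G40260 at 59.4, against 2.45 and 4.25. The lines were close to each other for both. AT5G52450 and AT5G65380 encode MATE efflux proteins, which export small molecules. AT5G65380 was at 168 FPKM in cortex, against 15.3 and 10.6, and AT5G52450 at 25.2, against 1.27 and 1.13. AT2G45180 encodes a protein of the lipid transfer and seed storage superfamily, and it was at 360 FPKM in cortex, against 29.7 in line 1 and 26.0 in line 2. A gene of the same superfamily, AT4G15160, was at 305 FPKM in cortex, against 30.5 and 28.6, but at 518 in epidermis. BGLU11, a beta glucosidase, was at 31.0 FPKM in cortex, against 1.72 and 2.40, and CYP71B26, a cytochrome P450, at 10.11, against 0.293 and 0.246. The remaining genes of the 15 widest gaps were AT5G18840 of the major facilitator superfamily, AT1G76470 with a Rossmann fold, AT1G10640 of the pectin lyase-like superfamily and the UDP-glycosyltransferase AT1G64910. Their cortex values lay between 11.3 and 50.5 FPKM, and every endodermis value was at most 3.85.

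Other genes were among the 15 with the widest gaps below endodermis. Prx37 (AT4G08770), a peroxidase outside the Casparian list, was at 4.50 FPKM in cortex, against 112 in line 1 and 107 in line 2. Its log2 difference from the mean of the lines was -4.33. MYB68 (AT5G65790), a relative of MYB36, was at 3.08 FPKM in cortex, against 79.1 and 62.3. The peroxidase gene AT4G16270 was at 2.24 FPKM in cortex, against 59.1 and 49.1, and AT3G26760, with a Rossmann fold, at 3.01, against 54.5 and 54.4. In all 4 the lines were nearly alike, so their differences from cortex do not rest on line 1. AT3G22600, of the lipid transfer superfamily, was at 17.0 FPKM in cortex, against 3948 in line 1 and 322 in line 2. AT2G14900, annotated as gibberellin-regulated, was at 12.4 FPKM in cortex, against 352 and 235. The peroxidase gene AT3G32980 was at 14.0 FPKM in cortex, against 737 and 239, and the dirigent-like gene AT4G11190 at 10.9, against 281 and 168. Peroxidase genes have close copies, and how reads shared among copies were counted is not stated in the labels.

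Transport of auxin divided at single genes. PIN2 (AT5G57090), the efflux carrier of root gravitropism, was called higher at 160 FPKM in cortex, against 11.7 in line 1 and 20.9 in line 2. PIN7 was called lower at 10.5 FPKM in cortex, against 33.0 and 24.1. The other 13 measured genes of the 15 were not called, including AUX1 at 48.3 FPKM in cortex, against 72.6 and 18.8. The list's median was -0.25, at -0.60 from line 1 and -0.050 from line 2.

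Among water channels more genes were called lower than higher in cortex, and line 1 was highest. Of 19 aquaporin genes, 4 were called lower and 1 higher, against 1.72% and 1.89% of all measured genes. The list's median was -0.75, at -1.45 from line 1 but -0.052 from line 2. TIP1;1 (AT2G36830), of the vacuole membrane, was at 309 FPKM in cortex, against 4209 in line 1 and 1335 in line 2. TIP2;1 was at 373 FPKM in cortex, against 2375 and 1133. PIP2;2 was at 120 FPKM in cortex, against 1001 and 467, and its close copy PIP2;3 at 20.2, against 512 and 69.9. Reads of the copies may have been split between them. PIP2;6 was the member called higher, at 7.67 FPKM in cortex against 2.96 and 0.0937, and the call was lost with size factors.

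Expansins, which loosen walls in growing cells, included 2 genes called higher among 11 measured (13 listed) and 0 lower. Shares over all measured genes were 1.89% higher and 1.72% lower. EXPA11 (AT1G20190) was at 270 FPKM in cortex, against 110 and 108, and EXPA10 (AT1G26770) at 6.402, against 0.518 and 0.609. The lines nearly coincided for both, although the call for EXPA11 was lost with size factors. Of 8 measured xyloglucan enzymes 0 were called. Among 14 measured mineral transporters, NRAMP1 (AT1G80830), which takes up iron and manganese, was called higher at 130 FPKM in cortex, against 25.6 in line 1 and 63.0 in line 2, and 0 were called lower. The NRAMP1 call was lost with quantile normalization.

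Several lists held no called gene, where 3.61% of all measured genes were called, so a count of 0 in a short list is near the background. Abscisic acid signalling had 0 of 19 measured genes called, and its median of -0.19 was -0.52 against line 1 and 0.30 against line 2. PYL8, a receptor known to act in the root, was close to even at 53.2 FPKM in cortex, against 40.5 and 39.3. DNA methylation and demethylation had 0 of 28 measured genes called, with 21 of them between the lines. G2 and M phase had 0 of 16, S phase 0 of 12, and 10 of the S phase genes lay between the lines. For both cell cycle lists line 2 had the highest sum, cortex came next and line 1 was lowest. Of stele markers 0 of 14 measured were called, at sums of 117 FPKM in cortex, 154 in line 1, 105 in line 2 and 870 in stele. Of root cap markers 0 of 8 were called, at sums of 23.6 FPKM in cortex, 37.6 in line 1, 21.5 in line 2 and 5037 in columella root cap. The cortex sum lay between those of the lines in both cases, so neither list stood apart in cortex. Of 12 stress genes 0 were called, and 9 lay between the lines.

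**Figure D4:**
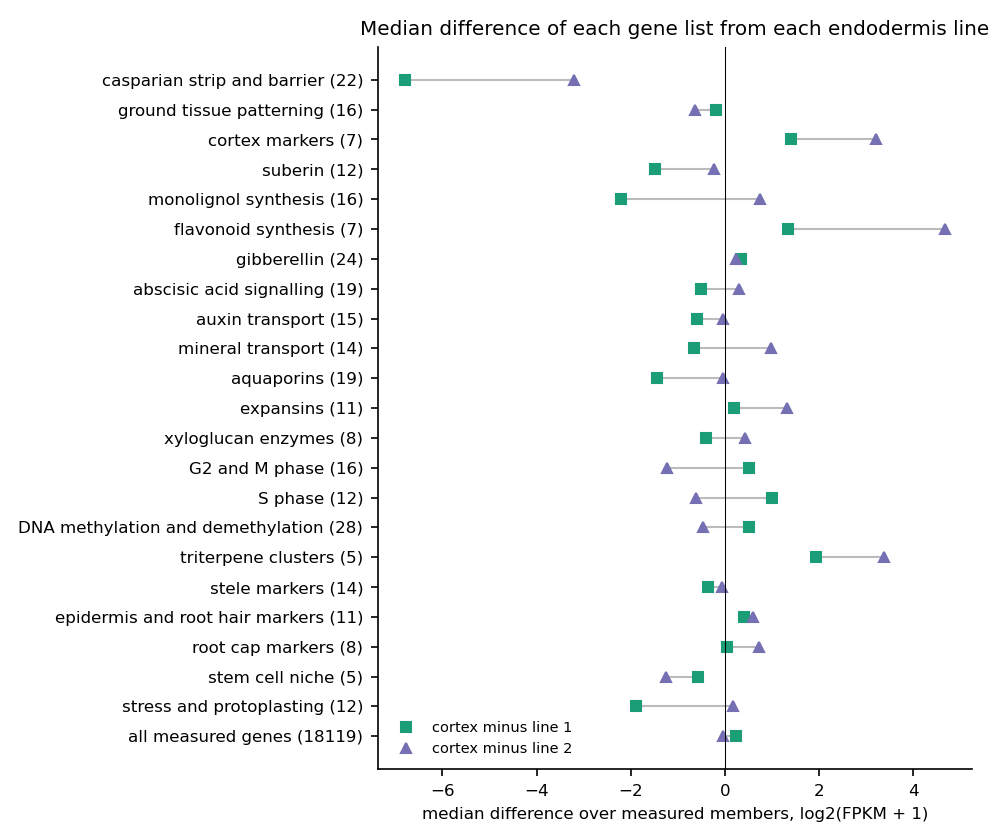
Each row is a gene list with its number of measured members in brackets, and the last row is all measured genes. Green squares give the median difference of cortex from endodermis line 1 and purple triangles that from endodermis line 2, in log2(FPKM + 1). Both symbols lie left of 0 for the Casparian strip list, at -6.80 and -3.21, and right of 0 for cortex markers, flavonoid synthesis and triterpene clusters, while monolignol, cell cycle and stress lists have them on opposite sides.

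The 3 libraries outside the contrast give a further readout of both sets. In epidermis against stele, which the rule did not use, 272 of the 342 genes called higher in cortex (79.5%) were above their stele value, against 154 of the 312 called lower (49.4%) and 6921 of all measured genes (38.2%). The median level of the higher set was 11.0 FPKM in epidermis and 1.58 in stele. The median of the lower set was 4.30 FPKM in epidermis and 5.46 in stele. The higher set was thus seen more in the outer neighbour of the cortex than in the stele. The lower set was near even, although its 49.4% was also above the 38.2% of all measured genes. Although cortex stood above both endodermis lines in the higher set by choice, another library was higher still in some genes. Epidermis was the highest of the 6 libraries for 75 of the 342 (21.9%, against 11.9% of all measured genes), columella root cap for 41 (11.99%, against 21.4%) and stele for 6 (1.75%, against 29.8%). These shares were not tested, as each library is single and genes are not independent replicates.

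**Figure D5:**
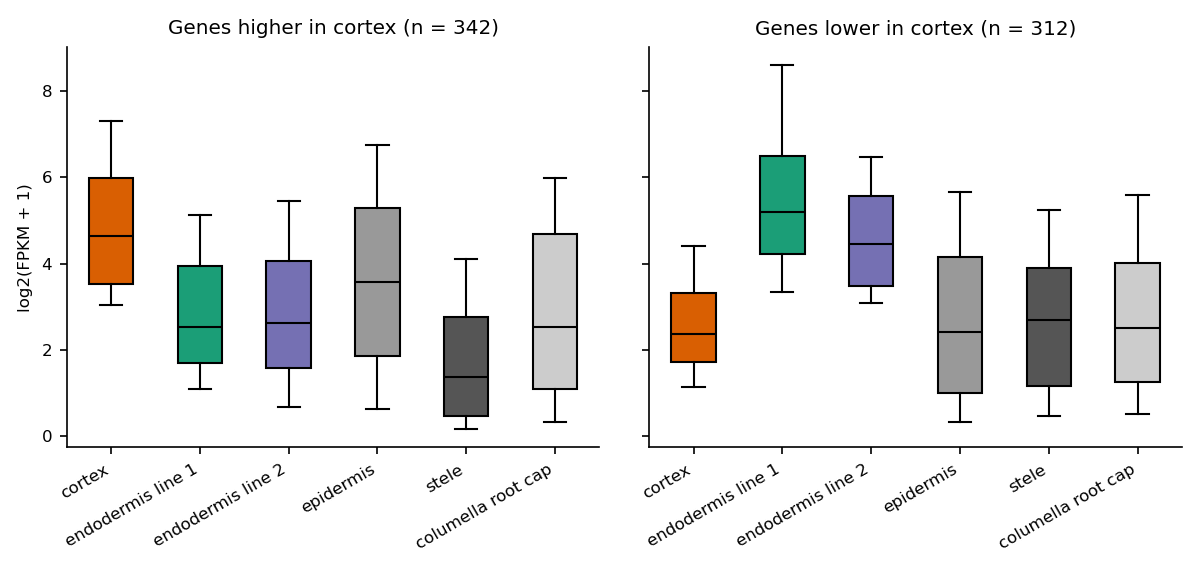
Boxes show log2(FPKM + 1) of the 342 genes called higher in cortex (left) and the 312 called lower (right) in each of the 6 libraries, with the median as a line, the quartiles as the box and the 10 and 90 percentiles as whiskers. Cortex and the endodermis lines differ by the choice of genes. Among the other libraries the higher set has its highest box in epidermis and its lowest in stele, and the lower set has similar boxes in all 3.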

How the data were processed

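Deposited values were FPKM computed by the authors, 1 file per library with 33554 loci. The build was TAIR10, and Cufflinks 2.0.2, Bowtie 0.12.7 and TopHat 1.3.1 are listed without roles, per the submitters' processing notes. Strandedness and the handling of reads shared by near-identical or overlapping genes are not stated there. Per the labels' protocols, polyA+ libraries were made with an Illumina TruSeq kit from sorted cells.

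From these values, log2(FPKM + 1) of the cortex library was compared with each endodermis line in Python 3.11.15, and limma 3.58.1 in R 4.3.3 gave the secondary test with trend and Benjamini-Hochberg adjustment over 18119 genes. Its p-values rest only on the spread between the endodermis lines. Its prior degrees of freedom were infinite, so that spread was pooled over genes of similar level. A gene's own gap between the lines did not enter its SE or p-value. The SE was 1.12 for CASP1, with the lines 4.57 log2 units apart, and 1.16 for EXPA11, with the lines 0.026 apart. Gene names came from the RefSeq table of TAIR10.1, where 32807 of 33554 identifiers matched. As the builds carry different names, no coordinates are printed. The relative value of 1 read was estimated from loci under 0.5 FPKM and is rough. An exact 0 can be a failed estimate.

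The 22 gene lists (338 genes) and the choice of comparison were made with earlier results of these data known. Lists are described by counts and medians, with no test. The named genes were the reporter genes and MYB36, the 15 widest gaps to the nearer line in each direction, and called list members. The plan was at most 8 called members per list and direction, which the Casparian strip list exceeds. Other list members are examples, and 1 gene of the Casparian strip list is counted but not reported here by name. Alternatives covered the pseudocount, filters, the minimum level, the fold, scaling, averaging the lines and leaving out each line. The code was tested on simulated data.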

Additional observations from a re-analysis of the deposited data

How the results depend on the processing

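Counts of genes called higher and lower in cortex were 207 and 188 with a pseudocount of 5, 78 and 108 with a log2 difference of at least 2, and 801 and 1189 against the mean of both lines. Leaving out an endodermis line gave 843 to 2234 higher and 650 to 2531 lower, since the gene then has only 1 line to differ from. With a pseudocount of 0.1, other filters or minimum levels, TPM, quantile normalization or size factors, both counts stayed within 1.5 times, and with size factors 276 of 303 higher and 280 of 314 lower genes were shared with the 342 and 312. Limma called 0 genes in each direction with size factors and also without the filter, at prior degrees of freedom of 5.78 and 4.50. The cause was not tested. Leaving out a line leaves limma no residual degrees of freedom, so no test was made. No paired analysis was possible because cortex has 1 library and shares fewer than 2 replicate numbers with endodermis.

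The set followed through the settings was 76 called genes: those with the 15 widest gaps in each direction and all called list members. Of these, 0 reversed under any setting. They were chosen for lying on the same side of both lines, so only the scalings could have turned a sign. Calls were lost for 8 with a pseudocount of 5, 9 with a minimum of 10 FPKM, 23 with a log2 difference of at least 2, 4 with size factors and 1 with quantile normalization. An alternative added after the data were seen asked that the gap to the nearer line exceed the gap between the lines. It left 291 higher and 234 lower genes and lost 21 of the 76, among them CASP1, CASP2, ESB1, PER64, PER72 and LAC3.

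List medians were moved by more than the spread between the lines, the SD of the medians against each line, in 15 of 198 values. Leaving out a line gives 1 of the medians that set this SD, so such a change seldom exceeds it. The count of 15 therefore understates how far the medians depend on the line. The sign of the median turned in 11 of the 198 values. Suberin was at -2.10 with a pseudocount of 0.1 and -3.13 with a filter of 5 FPKM. Epidermis and root hair markers were at 0.50 and 0.089 with pseudocounts of 0.1 and 5, 1.01 with a filter of 5 FPKM, 0.077 with no filter, -0.017 with size factors, 0.13 with TPM and 0.40 to 0.60 without a line. Gibberellin was at 0.097 with a pseudocount of 5, 0.079 with size factors and 0.23 to 0.34 without a line. Root cap markers were at -0.26 with a filter of 5 FPKM, xyloglucan enzymes at -0.39 to 0.42 without a line and stele markers at -0.36 to -0.054. The sign also turned for DNA methylation with size factors (-0.052, where the median of all genes moved by -0.11) and without line 1 (-0.46), for monolignol synthesis (0.75), abscisic acid signalling (0.30), S phase (-0.61) and stress genes (0.16) without line 1, and for mineral transport (-0.65) and G2 and M phase (0.50) without line 2. The causes were not tested. Reads per library are not known, so values under about 1 FPKM carry an error that could not be set.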

Other observations

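Families named by their RefSeq product words were counted after the values were seen, so the counts are descriptions. Cytochrome P450 genes leaned to the cortex side, with 15 of 101 measured genes called higher and 2 lower, against 1.89% and 1.72% of all measured genes. The CYP705 family, to which the thalianol desaturase THAD belongs, held 8 of the higher ones among 18 measured genes, and 0 were called lower. CYP705A19 was at 41.1 FPKM in cortex, against 6.16 in endodermis line 1 and 2.33 in line 2, while CYP705A12 was at 10.8 FPKM in cortex, against 3.97 and 0.772, and at 87.2 in epidermis. Glycosyltransferases had 10 of 89 measured genes called higher and 2 lower. MATE efflux proteins had 7 of 28 called higher and 1 lower. ALF5, a MATE gene known for tolerance of toxic compounds, was at 22.1 FPKM in cortex, against 7.58 and 5.06.

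On the endodermis side, dirigent proteins, which steer the coupling of lignin and lignan precursors, had 7 of 17 measured genes called lower in cortex and 0 higher. Besides ESB1, AT3G55230 was at 3.35 FPKM in cortex, against 960 in line 1 and 33.5 in line 2. Arabinogalactan proteins, sugar-rich proteins of the cell surface, had 7 of 43 called lower and 0 higher. AGP13 was at 93.7 FPKM in cortex, against 1047 and 834, and AGP10 at 150 FPKM, against 421 and 449, so for these the lines were close. The family of CASP and CASP-like proteins had 6 of 29 called lower and 0 higher. CASP1, CASP2, CASP4 and CASP5, reported above, are among those 6. Peroxidases had 9 of 48 called lower and 3 higher. PER3, PER9, PER39, PER64 and PER72 of the Casparian strip list are among those 9, so these counts repeat genes already described. Of 944 measured protein kinase genes, 31 (3.28%) were called lower and 7 (0.742%) higher, against 1.72% and 1.89% of all measured genes.

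Of the genes called higher, 42 of 342 had a neighbour called the same way, and of those called lower 36 of 312 did. A neighbour is the next measured gene on the chromosome, with unmeasured loci skipped. No background share was computed for these counts, so whether they are high or low is not known. Neighbouring copies can share reads, which the deposited values do not show.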
